A study of Mus musculus with 2 samples.

Results

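N-glycan branching enzymes were followed by name through the cells of LLC tumours: Man2a1, Mgat1, Mgat2, Mgat3, Mgat4a, Mgat4b, Mgat5, Fut8, B4galt1 and St6gal1. These 10 genes, of 34097 listed, were taken by their symbols and not by any measured value, and all 10 were found. Single-cell RNA was counted as unique molecular identifiers (UMIs, 1 per captured transcript) in 2 tumours of mouse LLC cells, a Lewis lung carcinoma line, labelled as lung cancer xenografts. The control group is 1 tumour library labelled NC and treated as control. The other group is 1 tumour library labelled SH, with a short hairpin RNA against Gfpt2, and is called the knockdown library. The question of the series is what the knockdown does to the immune microenvironment and to cell-cell communication. Strain, age and sex of the hosts, the number of animals behind each library and the hairpin's clone or pool are not given in the sources used here.

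N-glycans are sugar trees that are attached to proteins in the endoplasmic reticulum and remodelled in the Golgi. MGAT1 starts the first antenna, the mannosidase MAN2A1 then trims mannose, MGAT2 starts the second antenna, and MGAT4A, MGAT4B and MGAT5 add further branches, while MGAT3 adds a bisecting sugar that hinders later branching. All MGAT enzymes use UDP-GlcNAc, the product of the hexosamine pathway in which GFPT2 and its paralog GFPT1 catalyse the rate-limiting step. B4GALT1 adds galactose, FUT8 adds the core fucose and ST6GAL1 caps antennae with sialic acid, so these use other donor sugars, and MAN2A1 uses none.

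Cell classes were gated on raw counts in both libraries. Macrophages had C1qa, C1qb and C1qc at 10 or more UMIs per 10000, T cells had 2 or more UMIs of Cd3d, Cd3e and Cd3g, and tumour-like cells had no Ptprc, Lyz2 under 5 UMIs per 10000 and at least 5000 UMIs. The control and knockdown libraries gave 4948 and 5142 tumour-like cells (median depth 18733.5 and 14763.5 UMIs), 3858 and 4414 macrophages (5420 and 3938 UMIs) and 658 and 529 T cells (2797.5 and 2547 UMIs). Tumour-like cells held Hmga2 at 221 and 218 CPM (UMIs scaled to a total of 1000000 per class), but Krt8, Krt18 and Epcam had at most 9 UMIs in either library. They also held the fibroblast markers Col3a1 (1415 and 1647 CPM) and Dcn (1026 and 1079 CPM), so the class is named by its gate. The 5 epithelial and LLC markers summed below are Krt7, Krt8, Krt18, Epcam and Hmga2. In tumour-like cells they came to 222 and 219 CPM, nearly all of it Hmga2. Xist, made from the inactive X chromosome of female cells, was at 2.54 and 3.30 CPM in tumour-like cells, against 499 and 393 CPM in macrophages and 490 and 565 CPM in T cells. The Xist level of the host's fibroblasts was not measured. The libraries share 37 cell barcodes, 4 of them tumour-like in both and 4 macrophages in both. Gfpt2, the check of the labels, was at 1.77 CPM (95% interval 1.56 to 2.00, 246 UMIs) over all kept control cells and at 0.564 CPM (0.437 to 0.716, 67 UMIs) over all kept knockdown cells. With 1 library per group no difference could be set against a spread between tumours, no test was run, and every interval below is a 95% interval that covers counting error only.

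Most branching enzymes of the tumour-like cells were at nearly the same level in both libraries. Man2a1 and B4galt1 were higher in the knockdown library, both by less than 25%, and Mgat4a was lower. Man2a1, the Golgi mannosidase that prepares the second antenna, was at 57.3 CPM (55.8 to 58.8) in control cells and 71.2 CPM (69.4 to 73.0) in knockdown cells, with a log2 ratio of 0.31 (0.26 to 0.36). B4galt1, the galactosyltransferase that extends antennae, was at 62.4 CPM (60.8 to 63.9) in control cells and 75.0 CPM (73.2 to 76.9) in knockdown cells, with a log2 ratio of 0.27 (0.22 to 0.32). For both genes the intervals of the libraries lay apart. Mgat4a was at 17.8 CPM (17.0 to 18.6) in control cells and 15.7 CPM (14.9 to 16.6) in knockdown cells, with a log2 ratio of -0.18 (-0.28 to -0.07). The other tested enzymes had ratios whose intervals held 0: Mgat1 at 36.5 and 35.2 CPM, Mgat2 at 47.4 and 49.1 CPM, Mgat4b at 93.2 and 90.5 CPM, Mgat5 at 15.5 and 14.6 CPM, Fut8 at 15.4 and 16.5 CPM, and St6gal1 at 6.60 and 7.07 CPM.

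**Figure D1:**
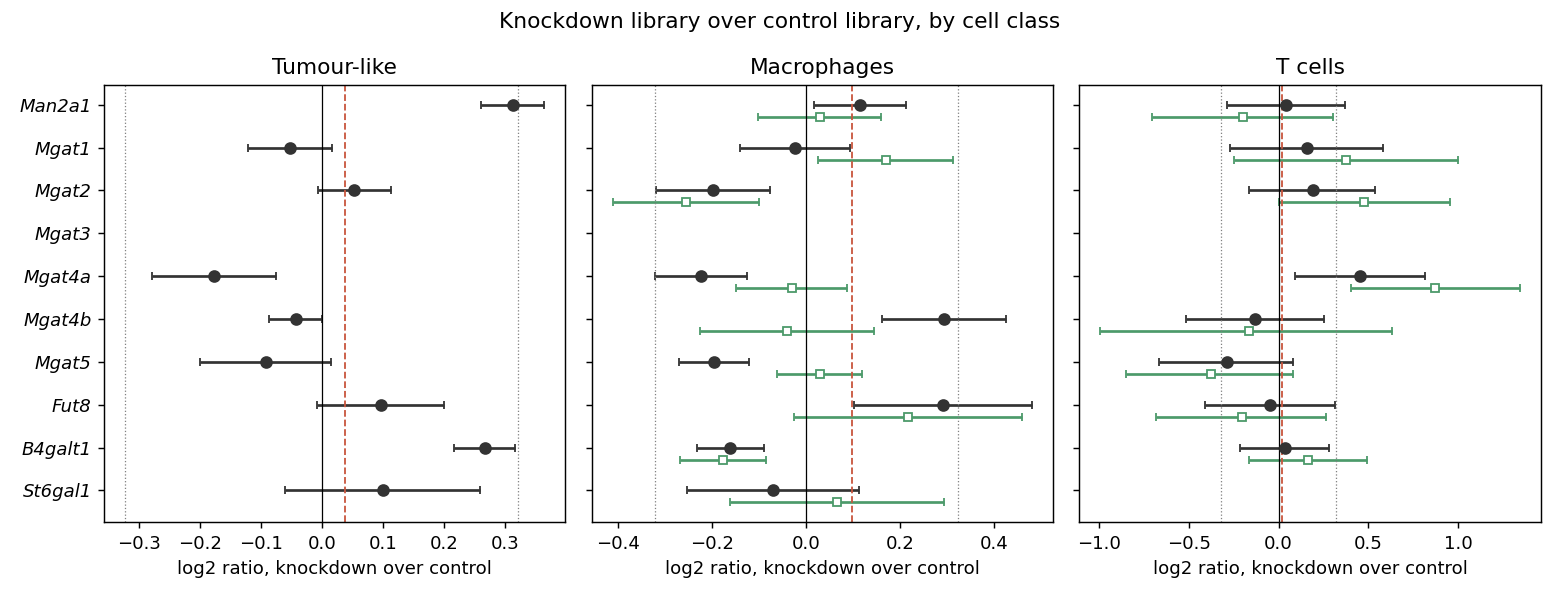
Log2 ratios of the knockdown over the control library (x axis) for each enzyme with at least 100 UMIs in 1 or both libraries, in 3 cell classes. Black points are all cells of the class, green squares are macrophages and T cells with little tumour RNA, bars are 95% counting intervals, dotted lines mark a 25% difference (0.32) and the dashed red line is the median of all genes; Man2a1 and B4galt1 stand to the right in tumour-like cells, and the macrophage values of Mgat4a, Mgat4b and Mgat5 lie near 0 among the green squares.

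A gene counted as higher or lower when its log2 ratio reached 0.32 in size, 25% above the lower of the libraries, and it had at least 100 UMIs in 1 or both. By that rule 0 of 9 tested enzymes were higher and 0 of 9 were lower in tumour-like cells, where 7.65% of 12345 genes were higher and 2.02% were lower. Mgat3 was under the minimum. Man2a1 lay just under the limit at 0.31, and reached it when doublets were kept (log2 ratio 0.33). The median log2 ratio of the 9 enzymes was 0.05, beside 0.04 over all genes tested. Summed over the 10 enzymes, the level was 352 CPM (348 to 356) in control and 375 CPM (371 to 379) in knockdown tumour-like cells.

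The differences in Man2a1 and B4galt1 were present in cycling and in non-cycling tumour-like cells, split at 2 UMIs of Mki67 and Top2a per 10000. For Man2a1 the log2 ratio was 0.37 (0.28 to 0.45) in cycling cells and 0.29 (0.22 to 0.36) in the rest. For B4galt1 it was 0.23 (0.15 to 0.31) in cycling cells and 0.29 (0.23 to 0.36) in the rest. Mgat4a did not follow them: its ratio was -0.01 (-0.17 to 0.15) in cycling cells, at 15.6 and 15.5 CPM, and -0.28 (-0.41 to -0.15) in non-cycling cells, at 19.3 and 15.9 CPM. Within each library, cycling cells held less Man2a1 (log2 ratio to non-cycling cells -0.35 among control and -0.27 among knockdown cells), less Mgat4b (-0.28 and -0.27) and less Mgat1 (-0.19 and -0.18), and all of these intervals lay below 0. The summed fibroblast markers moved with this split, at 1552 CPM in cycling against 3187 CPM in non-cycling control cells and 1769 against 3613 CPM in knockdown cells. The epithelial and LLC sum, nearly all Hmga2 in tumour-like cells, was at 266 against 191 CPM and 270 against 180 CPM. Xist was at 2.15 against 2.82 CPM and 2.51 against 3.92 CPM. The part of these genes in the values was not tested. B4galt1 was at nearly the same level in cycling and non-cycling cells of the control library, 62.2 and 62.4 CPM.

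Because Man2a1 and B4galt1 had the highest knockdown over control ratios of the enzymes tested in tumour-like cells, their promoters are shown, as RefSeq gives them for GRCm38.p6, from 250 bases before to 50 bases after the start of transcription. RefSeq windows were found for 8 of the 10 enzymes, and the names Mgat3 and Mgat4b matched none. The Man2a1 window is chr17:64601399-64601698 on the plus strand and the B4galt1 window is chr4:40853935-40854234 on the minus strand. Capitals mark the GC box GGGCGG on either strand.
Man2a1: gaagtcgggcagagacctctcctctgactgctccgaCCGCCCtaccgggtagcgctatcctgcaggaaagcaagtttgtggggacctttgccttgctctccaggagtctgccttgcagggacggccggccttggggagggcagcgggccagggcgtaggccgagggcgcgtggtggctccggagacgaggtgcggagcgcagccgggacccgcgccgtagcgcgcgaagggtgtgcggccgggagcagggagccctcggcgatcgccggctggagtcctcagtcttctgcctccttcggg
B4galt1: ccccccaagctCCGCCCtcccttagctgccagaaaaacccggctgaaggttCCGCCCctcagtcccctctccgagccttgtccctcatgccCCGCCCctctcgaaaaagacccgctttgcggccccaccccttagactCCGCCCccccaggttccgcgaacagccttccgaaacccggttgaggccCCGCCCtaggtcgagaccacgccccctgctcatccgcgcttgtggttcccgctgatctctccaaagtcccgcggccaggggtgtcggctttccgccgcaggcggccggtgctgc
B4galt1 holds 5 GC boxes and Man2a1 holds 1, at a GC content of 68.3% and 70%, while 35.7% of all 32851 windows of this length hold at least 1 GC box. Neither window holds a CCAAT box (CCAAT on either strand), which 37.4% of the windows hold. A GC box is not particular to these 2 enzymes. All 8 enzymes with a window, some with several, held a GC box in at least 1 of them, and Mgat1 and Mgat2 had windows with 3. These matches describe the sequence and the data do not test them. Mgat1 and Mgat4b lie on chromosome 11 with Gfpt2: in the GRCm38.p6 genes of RefSeq, 19 protein-coding genes stand between Mgat1 and Gfpt2, and 6 between Gfpt2 and Mgat4b. The log2 ratio of Mgat1 in tumour-like cells was -0.05 (-0.12 to 0.02) and that of Mgat4b was -0.04 (-0.09 to 0.00).

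A small set of tumour-like cells with Krt16 at 1 or more UMI per 10000 had another profile of these enzymes, in both libraries. The control library had 156 such cells with 88 of its 205 tumour-like Gfpt2 UMIs, and the knockdown library had 56 such cells with 3 of its 55. St6gal1, the sialyltransferase, was at 21.9 CPM (17.4 to 27.2) in control Krt16 cells against 6.02 CPM (5.54 to 6.52) in the other tumour-like cells, 3.64-fold higher. In the knockdown library it was at 16.6 CPM (9.46 to 26.9, 16 UMIs) against 6.96 CPM (6.42 to 7.54), 2.38-fold higher. The summed macrophage markers were at 198 CPM in the Krt16 cells and 181 CPM in the others of the control library, and at 198 and 209 CPM in the knockdown library. The summed fibroblast markers were lower in the Krt16 cells, at 1610 against 2540 CPM in the control and 2550 against 2811 CPM in the knockdown library, and the epithelial and LLC markers were at 289 against 219 CPM and 208 against 220 CPM. Their part in the enzyme differences was not tested.

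Mgat1, which starts the first antenna, was also higher in the Krt16 cells, at 54.2 against 35.8 CPM in the control (log2 ratio 0.60, 0.39 to 0.80) and 51.7 against 35.0 CPM in the knockdown library (0.56, 0.13 to 0.97). Man2a1 was lower, at 33.4 against 58.2 CPM (-0.80, -1.07 to -0.55) and at 47.6 against 71.5 CPM (-0.59, -1.04 to -0.17). Fut8, the core fucosyltransferase, had similar ratios of -0.70 (-1.22 to -0.23) and -0.68 (-1.74 to 0.21), the second of them not distinguishable from 0 at this depth. Mgat4b had ratios of 0.33 (0.18 to 0.47) in the control and 0.07 (-0.24 to 0.37) among knockdown cells, a difference between libraries that was not tested. The Krt16 cells differed little in depth from the rest, with medians of 22340 and 18616.5 UMIs in the control and 15299 and 14754 UMIs in the knockdown library.

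**Figure D2:**
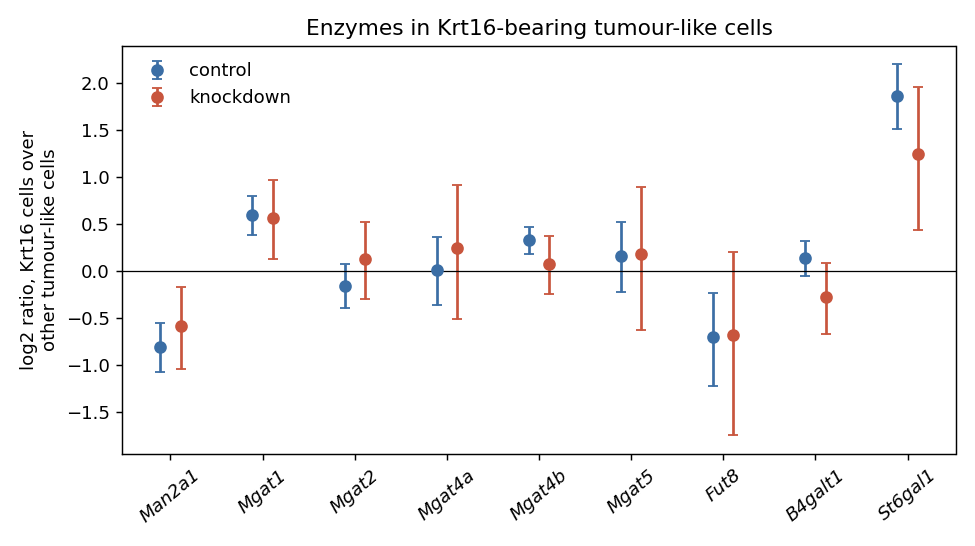
Log2 ratio (y axis) of each enzyme's level in Krt16-bearing tumour-like cells over the other tumour-like cells, separately in the control and the knockdown library, with 95% counting intervals; Mgat3 is left out for want of counts. St6gal1 and Mgat1 lie above 0 and Man2a1 lies below 0 in both libraries.

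Several enzymes differed between cell classes, with Mgat5 and Mgat4a furthest apart between macrophages and tumour-like cells. Mgat5, whose branch is the favoured site for long lactosamine chains, was 9.34-fold higher in macrophages than in tumour-like cells of the control library and 8.69-fold higher among knockdown cells. Its level was 145 CPM (140 to 150) and 127 CPM (122 to 132) in macrophages, 54.6 and 44.7 CPM in T cells, and 15.5 and 14.6 CPM in tumour-like cells, control first. NK cells, gated on Ncr1, Klrb1c and Klre1 without Cd3 genes, stood above macrophages at 273 CPM (219 to 335, 53 cells) and 253 CPM (205 to 310, 60 cells). Their interval lay above that of macrophages in both libraries, and the macrophage markers other than Ptprc, which all leukocytes make, summed to 370 and 2230 CPM in the NK gate against 31905 and 26548 CPM in macrophages. Monocytes (168 and 69 cells) had 79.4 and 55.2 CPM of Mgat5 and dendritic cells (56 and 52) had 17.6 and 20.3 CPM. The monocyte gate also held fibroblast markers, at 2297 and 3409 CPM in sum, and in the control library B and plasma cell markers at 1162 CPM. Dendritic and tumour-like cells did not differ beyond counting error, and neither did monocytes and T cells of the knockdown library, where monocytes had 16 Mgat5 UMIs.

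Macrophages, NK cells and T cells of both libraries, and monocytes of the control library, also stood above tumour-like cells in shares of cells. Thinned to 3000 UMIs per cell, with shallower cells left out, a Mgat5 UMI was seen in 33.0% of 3014 control and 30.3% of 2772 knockdown macrophages, and in 5.09% and 4.94% of tumour-like cells. Among NK cells it was seen in 22 of 41 and 20 of 40, with 12 and 20 cells too shallow. T cells gave 16.9% and 11.7%, dendritic cells 6.52% and 7.32%, and monocytes 23.8% of 101 and 6.25% of 32 cells. Unthinned, these shares were 49.0% and 37.1% in macrophages and 26.2% and 20.6% in the deeper tumour-like cells. Csf1r, a macrophage gene that no gate used, was at 1.86 and 2.53 CPM in tumour-like cells and at 283 and 224 CPM in macrophages, though the gates themselves keep macrophages out of the tumour-like class. The part of macrophage RNA in the Mgat5 UMIs of tumour-like cells was not tested.

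**Figure D3:**
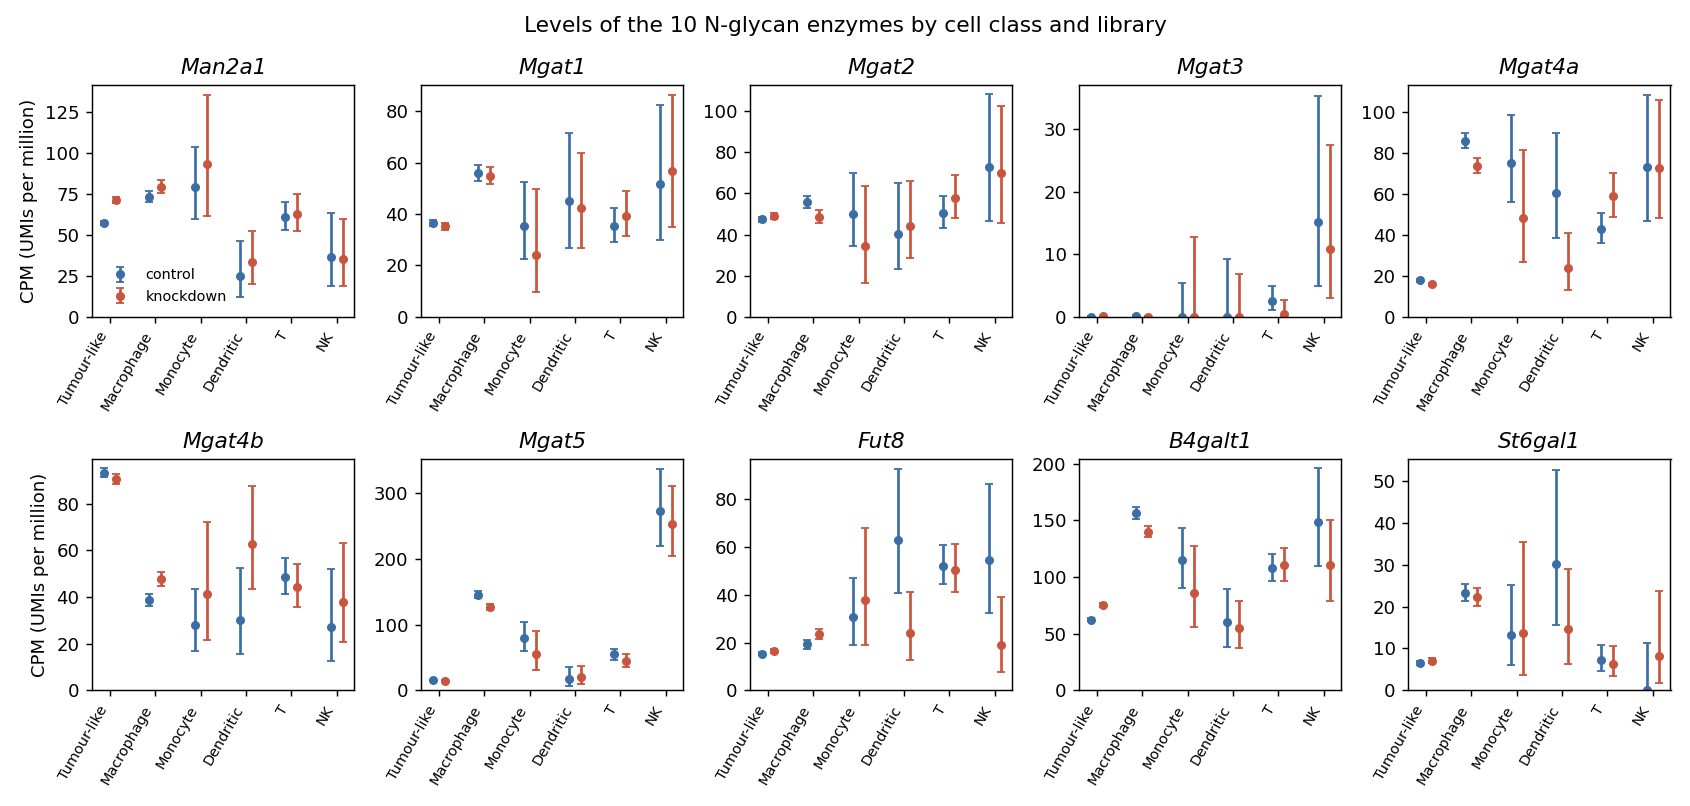
Levels in CPM (y axis) of the 10 enzymes in 6 cell classes (x axis) of the control and the knockdown library, with exact 95% Poisson intervals. Each panel has its own scale starting at 0; Mgat5 and Mgat4a are lowest in the tumour-like class, Mgat4b is highest there, and Mgat3 is near 0 outside NK and T cells.

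The paralogs Mgat4a and Mgat4b, which add the same branch, were present in opposite proportions. Mgat4a was 4.83-fold and 4.68-fold higher in macrophages than in tumour-like cells of the control and knockdown libraries, whereas Mgat4b was 2.40-fold and 1.91-fold higher in tumour-like cells than in macrophages. As a share of the UMIs of both genes, Mgat4a made up 16.0% (15.3 to 16.7) in control and 14.8% (14.1 to 15.5) in knockdown tumour-like cells. In macrophages it made up 68.9% (67.1 to 70.6) and 60.7% (58.8 to 62.7), in T cells 46.9% (41.1 to 52.8) and 57.0% (50.1 to 63.7), and in NK cells 72.7% (54.5 to 86.7) and 65.9% (49.4 to 79.9). Dendritic cells gave 66.7% (49.0 to 81.4) and 27.7% (15.6 to 42.6). Their gate held fibroblast markers at 585 and 1335 CPM and epithelial and LLC markers at 52.7 and 144 CPM. T cell markers other than Ptprc were at 176 and 249 CPM in it. The part of these markers in that share was not tested. T cells carried much tumour RNA, with Hmga2, Col3a1 and Dcn at 42.4% and 26.2% of their tumour-like level, and among T cells with these genes under 2 UMIs per 10000 the share was 66.3% (56.4 to 75.3) and 80.2% (71.7 to 87.0). A 3′ count does not scale with transcript length, but the capture of each gene can differ, so the share does not say which paralog is more abundant.

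**Figure D4:**
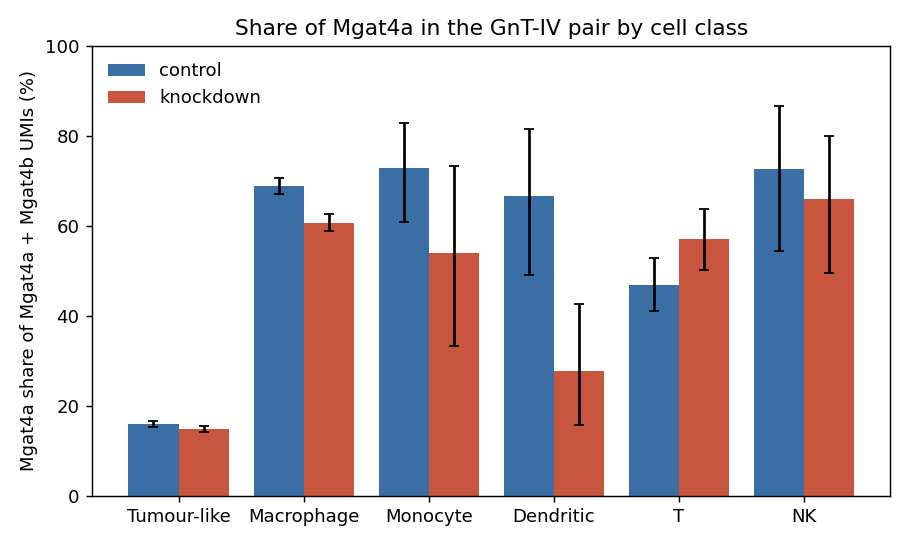
Share (y axis, percent) of Mgat4a among the UMIs of Mgat4a and Mgat4b in 6 cell classes of the control and the knockdown library, with exact 95% binomial intervals. Tumour-like cells sit at 16.0% and 14.8%, below every interval of macrophages, T cells and NK cells.

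Of the other enzymes, St6gal1 was 3.53-fold and 3.14-fold higher in macrophages than in tumour-like cells, at 23.3 and 22.2 CPM against 6.60 and 7.07 CPM. Fut8 was 3.38-fold and 3.06-fold higher in T cells than in tumour-like cells, at 52.1 and 50.5 CPM, and macrophages had 19.2 and 23.5 CPM. B4galt1 was 2.51-fold and 1.86-fold higher in macrophages than in tumour-like cells, at 156 and 140 CPM. Man2a1, Mgat1 and Mgat2, the enzymes of the first steps, varied least among tumour-like cells, macrophages and T cells, with Mgat1 in control macrophages over control T cells the widest ratio of theirs at 1.58-fold. The bisecting enzyme gene Mgat3 was almost absent, with 1 and 2 UMIs in tumour-like cells and 1 and 0 in macrophages, where a count of 0, read as a limit of 3 UMIs and not by the Poisson interval, allows up to 0.144 CPM. It had 8 UMIs in control T cells and 1 in knockdown T cells, and 5 and 4 UMIs in NK cells, or 15.2 CPM (4.92 to 35.4) and 10.8 CPM (2.94 to 27.6).

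Macrophages of the knockdown library had more Mgat4b and Fut8 and less Mgat4a, Mgat2, Mgat5 and B4galt1 than those of the control library, each by less than 25% of the lower value. Mgat4b was at 38.8 CPM (36.3 to 41.4) in control and 47.5 CPM (44.6 to 50.6) in knockdown macrophages, with a log2 ratio of 0.29 (0.16 to 0.43). Fut8 had a ratio of 0.29 (0.10 to 0.48). Mgat4a was at 85.8 CPM (82.1 to 89.7) and 73.5 CPM (69.9 to 77.3), a ratio of -0.22 (-0.32 to -0.13). Mgat5 had a ratio of -0.20 (-0.27 to -0.12), Mgat2 of -0.20 (-0.32 to -0.08) and B4galt1 of -0.16 (-0.23 to -0.09). Man2a1 was nearer to 0 at 0.11 (0.02 to 0.21), and the intervals of Mgat1 and St6gal1 held 0. Of 9 tested enzymes, 0 were past the limit in either direction, where 22.5% of 10614 genes were higher and 5.89% lower. Their median log2 ratio was -0.07, beside 0.10 over all genes tested.

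RNA of tumour-like cells moved with the macrophage comparison. Hmga2, Col3a1 and Dcn, summed, stood at 11.3% of their tumour-like level in control macrophages and at 27.8% in knockdown macrophages, and the 5 fibroblast markers at 279 and 760 CPM. When only macrophages with these 3 genes under 2 UMIs per 10000 were used (2812 control and 2376 knockdown cells), Mgat4b was at 37.1 and 36.1 CPM with a log2 ratio of -0.04 (-0.23 to 0.14). Mgat4a then had a ratio of -0.03 (-0.15 to 0.09) and Mgat5 of 0.03 (-0.06 to 0.12). The Mgat4a share of the pair was 70.5% (68.6 to 72.4) and 70.7% (68.1 to 73.1) in these cells. B4galt1 kept a ratio of -0.18 (-0.27 to -0.09) and Mgat2 of -0.26 (-0.41 to -0.10), and Fut8 was at 0.22 (-0.03 to 0.46). Mgat1 moved away from 0, from -0.02 (-0.14 to 0.09) to 0.17 (0.02 to 0.31). So the library differences in Mgat4a, Mgat4b and Mgat5 were not seen among macrophages with little tumour RNA, and those in B4galt1 and Mgat2 were as large there.

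In macrophages with the interferon-induced genes Ifit1, Ifit2 and Ifit3 at 10 or more UMIs per 10000, Mgat5 was higher than in the other macrophages, at 160 against 143 CPM in the control library (log2 ratio 0.17, 0.03 to 0.30) and 142 against 122 CPM in the knockdown library (0.23, 0.10 to 0.35). Other enzymes had intervals away from 0 in 1 library each: Mgat2 at -0.52 (-0.79 to -0.26) and B4galt1 at 0.17 (0.04 to 0.30) in the control, and Mgat4a at 0.38 (0.22 to 0.54) and Mgat1 at 0.26 (0.07 to 0.45) in the knockdown library. In the other library the ratios were -0.08 (-0.30 to 0.13) for Mgat2, 0.12 (-0.00 to 0.24) for B4galt1, 0.12 (-0.06 to 0.30) for Mgat4a and 0.07 (-0.16 to 0.29) for Mgat1, and the differences between libraries were not tested. The intervals of Man2a1, Mgat4b, Fut8 and St6gal1 held 0 in both. Ptprc, a gene of all leukocytes, was at 392 against 273 CPM in control and 409 against 268 CPM in knockdown macrophages. The 6 other T cell markers summed to 12.4 against 8.04 CPM and 16.1 against 17.4 CPM, and fibroblast markers were at 298 against 276 CPM and 621 against 806 CPM. Endothelial markers were higher in the Ifit-high cells of both libraries, at 25.8 against 13.4 CPM and 47.5 against 19.5 CPM, as were neutrophil markers, at 84.5 against 64.1 CPM and 45.2 against 30.3 CPM. Epithelial and LLC markers were at 29.1 against 30.7 CPM and 59.3 against 97.4 CPM. Their part in these values was not tested.

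In T cells the branching enzyme Mgat4a was higher in the knockdown library, at 42.8 CPM (36.0 to 50.6, 138 UMIs) in control cells and 58.6 CPM (48.7 to 70.0, 122 UMIs) in knockdown cells. That was 1.37-fold, a log2 ratio of 0.45 (0.09 to 0.82), and the only enzyme past the limit among the 8 tested, where 10.4% of 5127 genes were higher. None of the 8 was lower, where 8.27% of genes were, and the median was 0.04 beside 0.02 over all genes tested. CD8 T cells, 422 and 343 of them, gave 42.8 and 63.0 CPM of Mgat4a (0.56, 0.13 to 0.99). Mgat5 was at 54.6 and 44.7 CPM (-0.29, -0.67 to 0.08), and the intervals of Man2a1, Mgat1, Mgat2, Mgat4b, Fut8 and B4galt1 held 0 as well. Among the 429 control and 363 knockdown T cells with little tumour RNA, Mgat4a was at 47.8 and 87.5 CPM (0.87, 0.41 to 1.34, from 69 and 93 UMIs). The value depended on the doublet step: with doublets kept it was 0.26, and with every cell weighted equally 0.28, both under the limit of 0.32. Other genes rose in the T cell gate too, control first: NK markers, mostly Nkg7, at 1250 and 1802 CPM and Ptprc at 484 and 665 CPM. The T cell markers other than Ptprc summed to 3281 and 4115 CPM. The part of these shifts in the Mgat4a ratio was not tested.

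The scaling of the libraries bears on these directions. In macrophages TMM factors moved the median of all genes by -0.14, and the share of called genes that were higher went from 79.2% to 51.0%, or to 60.3% with median-of-ratios factors. For tumour-like cells it went from 79.1% to 65.5% under TMM, and for T cells from 55.6% to 41.7%. Under TMM the ratios in tumour-like cells were 0.25 for Man2a1 and 0.20 for B4galt1, and Mgat2 changed sign to -0.01. In macrophages Man2a1 changed sign to -0.02 under TMM, while Mgat4a, Mgat2 and Mgat5 passed the limit at -0.36, -0.34 and -0.33.

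Of the 51 other genes of the N-glycan pathway, 44 were tested in tumour-like cells, and 1 was higher and 2 were lower, beside 7.65% and 2.02% of all genes. St3gal6, a sialyltransferase, was higher (log2 ratio 0.39, 0.14 to 0.63), and Mgat4c, a relative of the Mgat4 enzymes, was lower, at 1.06 and 0.564 CPM (-0.91, -1.43 to -0.41), besides Gfpt2 itself (-1.66, -2.11 to -1.22). Without the Krt16 cells the ratio of Gfpt2 was -0.96 (-1.46 to -0.48), from 117 and 52 UMIs. The enzymes that make UDP-GlcNAc were otherwise close: Gfpt1 at 30.9 and 31.6 CPM (0.03, -0.04 to 0.11), Pgm3 at 21.1 and 21.6 CPM (0.04, -0.05 to 0.13) and Gnpnat1 at 58.0 and 53.7 CPM (-0.11, -0.17 to -0.06). Uap1, which makes UDP-GlcNAc in the last step, was at 96.4 and 115 CPM (0.26, 0.22 to 0.30), under the limit of 0.32. The UDP-GlcNAc transporter gene Slc35a3 had a ratio of 0.01 (-0.10 to 0.12).

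In macrophages 42 of the 51 were tested, and 10 were higher and 3 lower, beside 22.5% and 5.89% of all genes, so the shares were near the background. The ratio of B4galt2, a galactosyltransferase, was the highest (3.94 and 9.75 CPM, 1.31, 0.94 to 1.68), followed by those of the glucosidase subunit Ganab (0.63, 0.49 to 0.76) and of Fpgt (0.60, 0.22 to 0.99), of the fucose salvage pathway. The lower genes were the GDP-fucose transporter Slc35c1 (-0.57, -0.94 to -0.21), the galectin Lgals3 (-0.43, -0.45 to -0.41) and the mannosidase Man1c1 (-0.34, -0.47 to -0.21). In T cells 23 were tested, 0 were higher and 3 lower, beside 10.4% and 8.27% of all genes. The lower genes were Lgals3 (-0.59, -0.69 to -0.49), Gfus of GDP-fucose synthesis (-0.37, -0.74 to -0.01) and Ganab (-0.33, -0.65 to -0.02). The tumour RNA described above differed between the libraries in both of these classes, and its part in these pathway values was not tested.

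Across the 6 classes of both libraries (12 points, 11894 genes with at least 500 UMIs), the enzymes with the widest range of log2(CPM + 1) were St6gal1, Mgat5 and Mgat3. The range of St6gal1, 4.96, rests on control NK cells, which had 0 UMIs where knockdown NK cells had 3, and without that point it was 2.10, below Mgat5 (4.13) and Mgat4a (2.38). The genes most like St6gal1 were Hsd17b11 (Pearson r 0.96), Rab7b (0.95) and Znfx1 (0.94). Those most like Mgat5 were Chka (0.96), Spp1 (0.94) and Arap3 (0.94). For Mgat3, which had 16 control and 8 knockdown UMIs over all kept cells, they were Ddx19a (0.93), Cuta (0.93) and Slc24a3 (0.92). The points of a class share their gate and those of a library share its depth, so these values only describe likeness.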

How the data were processed

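The deposited matrices hold raw UMI counts, not normalised. Per the file headers the authors' software was Cell Ranger 6.1.0, while the submitters' processing notes name version 3.1.0. The build, annotation and any later cell filter are not given in the sources used here. The control library held 11977 cells and 165824226 UMIs and the knockdown library 12853 cells and 138402860 UMIs. Cells under 200 genes, cells over 20% mitochondrial UMIs and the cells ranked highest by Scrublet score (0.8% per 1000 cells, 1148 and 1322 cells) were left out, which kept 10660 and 11450. Scrublet's own threshold marked 1069 and 2139. Cells that passed more than 1 of the macrophage, T cell and tumour-like gates were left out of these classes. The NK, dendritic and monocyte gates were not made exclusive in this way, so some of their cells can also be counted in another class.

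CPM, computed here from the deposited counts, is the UMIs of a gene scaled to 1000000 UMIs of its class. Intervals are exact (Poisson for CPM, Clopper-Pearson for shares, conditional binomial for ratios) at 95%. Only the ratio intervals were tested on simulated counts. They held the true ratio for 95.5% of 6032 unchanged genes, 98.5% of 65 genes lowered 2-fold and 93.1% of 72 genes raised 2-fold (67 genes). The last share missed the limit first set, 94%, and the limit was then loosened to 95% less 3 standard errors, which all 3 shares met. The named genes were all 10 enzymes, Gfpt2, the pathway genes past a log2 ratio of 0.32 (up to 3 in each direction per class) and the 3 genes most like each of the 3 enzymes with the widest range. Gfpt1, Pgm3, Gnpnat1, Uap1 and Slc35a3 were added after their values were seen. The enzymes, gates and lists were chosen with earlier results of these data known. Chosen after values were seen were also the restriction to cells with little tumour RNA, the 3 genes behind it, marker sums without Ptprc, the 2 promoters and their motifs, and the Mgat4a share. Alternatives covered doublet removal, gates, scaling (TMM of edgeR 4.0.16, median of ratios of DESeq2 1.42.0, neither used for a test), equal cell weights, thinning and count minimums. For the median of ratios only genes with at least 100 UMIs in 1 or both libraries were used, a limit set after all-gene factors came out equal for macrophages. Python 3.11.15, numpy 2.4.6, scipy 1.17.1, pandas 2.3.3, scanpy 1.11.5 and R 4.3.3 were used.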

Additional observations from a re-analysis of the deposited data

Results flagged for a closer look

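Among tumour-like cells, macrophages and T cells, the library ratio of 2 enzymes pointed in opposite directions in different classes, with intervals on either side of 0. The log2 ratio of Mgat4a in T cells was above that in tumour-like cells by 0.63 and above that in macrophages by 0.68. The log2 ratio of B4galt1 in tumour-like cells was above that in macrophages by 0.43. Fut8 was lower in 2 of the small classes, at -1.53 (-3.04 to -0.21) in NK cells from 18 and 7 UMIs and -1.39 (-2.48 to -0.37) in dendritic cells from 25 and 13 UMIs. It was at 0.30 (-0.90 to 1.42) in monocytes from 21 and 11 UMIs and at 0.29 (0.10 to 0.48) in macrophages. In dendritic cells Mgat4a was at -1.33 (-2.43 to -0.30) from 24 and 13 UMIs and Mgat4b at 1.06 (0.07 to 2.14) from 12 and 34 UMIs. Markers of other cells moved with the NK and dendritic gates. In NK cells the macrophage markers without Ptprc were at 370 and 2230 CPM and fibroblast markers at 206 and 644 CPM, control first. In dendritic cells fibroblast markers were at 585 and 1335 CPM and T cell markers without Ptprc at 176 and 249 CPM. Their part in these ratios was not tested. With 1 library per group these differences between classes were not tested. Among macrophages with little tumour RNA, Mgat4a was at -0.03 (-0.15 to 0.09) and B4galt1 at -0.18 (-0.27 to -0.09).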

How the results depend on the processing

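Of 234 recomputed log2 ratios of single enzymes, 202 moved by less than the counting interval of the reported value and 32 moved further. The count of enzymes at least 25% higher in tumour-like cells became 1 without doublet removal (Man2a1) and 1 with no minimum count (Mgat3, from 1 and 2 UMIs). In macrophages the median log2 ratio became 0.051 with Scrublet's own threshold and -0.21 under TMM, and the count of lower enzymes became 3 under TMM and 1 with no minimum (Mgat3, 1 and 0 UMIs). In T cells the count of higher enzymes became 0 without doublet removal, 0 with cells weighted equally, 0 with little tumour RNA, where Mgat4a fell under the minimum of 100 UMIs, and 2 with cells thinned to 3000 UMIs (Mgat4a and Mgat1). The count of lower enzymes in T cells became 1 without doublet removal, with Scrublet's own threshold, under TMM, with cells weighted equally, when thinned, with little tumour RNA and with no minimum, which was Mgat4b with Scrublet's own threshold, Mgat3 with no minimum and Mgat5 otherwise. With every cell weighted equally, 42 of 60 levels moved beyond their counting interval (Mgat5 in control macrophages from 145 to 174 CPM and in control tumour-like cells from 15.5 to 17.3 CPM). Unthinned, 40 of 60 shares of cells did. Unless stated, the cause was not tested. No paired analysis was possible because each group has 1 library. Depth limits Mgat3 in every class and St6gal1 in T cells, which had 23 and 13 UMIs.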
